A study of Mus musculus with 57 samples.

Results

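The unirradiated Lewis lung carcinoma tumours of old male mice came from a pair of sham schedules, and 10 tumours labelled acute were compared with 9 tumours labelled x3. These 19 arrays were chosen by their titles and descriptions among the 57 arrays of the series, which also hold tumours of adolescent mice and tumours given 3 fractions of 0.5 Gy of protons. Every one of the 19 tumours is labelled as taken from an old male mouse with no treatment, and 1 tumour was hybridized per Illumina Mouse WG-6 BeadArray. The labels give neither the strain nor the age in months, neither the site of the transplant nor the time from sham exposure to collection. The x3 tumours, replicates 1 to 9, are described as 0 Gy given 3 times. Acute replicate 10 is described as 0 Gy, whereas the descriptions of replicates 11 to 19 name the acute schedule and state no dose; only the source field and the treatment field call those 9 tumours 0 Gy and untreated.

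Lewis lung carcinoma is a mouse lung cancer line that is grown by transplanting it into mice, and a tumour of it contains carcinoma cells together with host macrophages, fibroblasts, blood vessels and leukocytes. Sham exposure handles an animal as for irradiation without a dose, so sham tumours of 2 schedules serve as each schedule's own baseline. Carcinoma cells of this line are mesenchymal in character, with much vimentin and little E-cadherin, and such tumours commonly contain poorly oxygenated zones in which HIF-1 raises genes of glycolysis and collagen modification.

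The scanner background differed between the schedules. The inferred background intensity ran from 111 over a median of 134 to 140 in the x3 set, and from 115 over a median of 181 to 195 in the acute set. All acute arrays but replicate 10 lay above every x3 array, and the means were 174 ± 22.7 (SD, n = 10) and 130 ± 9.30 (SD, n = 9; two-sided exact permutation test, p = 0.000249). Replicate 10, the acute array with a stated dose, had a background of 115, within the x3 range. The share of probes detected above background was 39.1% ± 1.45 (SD, n = 10) in the acute set and 35.9% ± 3.02 (SD, n = 9) in the x3 set, a difference of 3.22 percentage points (two-sided exact permutation test, p = 0.00804) that became 4.26 without x3 replicates 6 and 7 (p = 0.000771). The sets overlapped, since the x3 arrays ran from 31.1% to 40.4% and the acute arrays from 35.4% to 40.3%. Schedule, background and any difference in handling cannot be told apart with these labels, and no chip or scan day was given.

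X3 replicates 6 and 7 held lung epithelium markers at levels far above those of the other 17 arrays. Scgb1a1, the secretoglobin of club cells, stood at 14.60 and 14.65 normalized log2 units in these 2 arrays, and between 4.54 and 5.03 in the others. Sftpc, the surfactant protein of alveolar type 2 cells, stood at 14.06 and 14.44 there. Sftpb, Sftpa1, Sftpc, Scgb1a1 and Nkx2-1, which encodes the transcription factor of lung epithelium, were detected on 0 of 10 acute arrays and on 2 of 9 x3 arrays, those 2. Ager, a receptor of alveolar type 1 cells, was detected on most arrays, at 12.59 and 13.18 in these 2 and at 5.11 to 6.48 elsewhere. The summed intensity of the 6 lung epithelium markers was 55513 and 69057 in replicates 6 and 7, whereas it ranged from 67.1 to 131 in the other x3 arrays and from 69.2 to 109 in the acute set.

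Markers of some other host cells moved with them, but not of all. Endothelial markers summed to 54227 and 73923 in x3 replicates 6 and 7 against 3190 to 4245 in the other x3 arrays and 1941 to 4978 in the acute set, and neutrophil markers summed to 34470 and 53702 there against at most 10085 elsewhere. Xist, the RNA of the silenced X chromosome, read 8.72 and 6.14 in these 2 arrays against 9.66 to 11.18 in the other 17, although all hosts are labelled male. Eif2s3y, a Y-linked gene, read 7.93 and 8.25 against 4.69 to 6.45. Other sex-linked markers did not follow it. Uty read 4.95 and 5.39 in these 2 arrays against 4.63 to 5.90 in the others, and Kdm5d was detected on no array. The 2 arrays correlated at 0.978 with each other and at 0.813 to 0.897 with the other x3 arrays. Counts and the leading genes below are therefore given with all 19 arrays and with the 17 that leave these 2 out; where a list gene or another probe of a named gene has 1 value, it is from all 19.

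X3 replicate 9 stood with the acute arrays. It correlated at 0.965 to 0.981 with them and at 0.931 to 0.951 with the x3 arrays other than replicates 6 and 7, and its detected share of 39.2% was also close to the acute median of 39.3%. Its background of 138 was that of the x3 set. Acute replicate 10 likewise had a background within the x3 range and expression near the acute arrays. On the first principal component of the normalized values, which held 51.8% of the variance, replicates 6 and 7 lay at -121 and -138 and all other arrays between -25.4 and 39.4. On the second, with 21.1%, the 6 x3 arrays other than 6, 7 and 9 lay between -56.2 and -34.5, whereas the acute arrays lay between -3.26 and 30.1 and replicate 9 at 10.2.

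**Figure D1:**
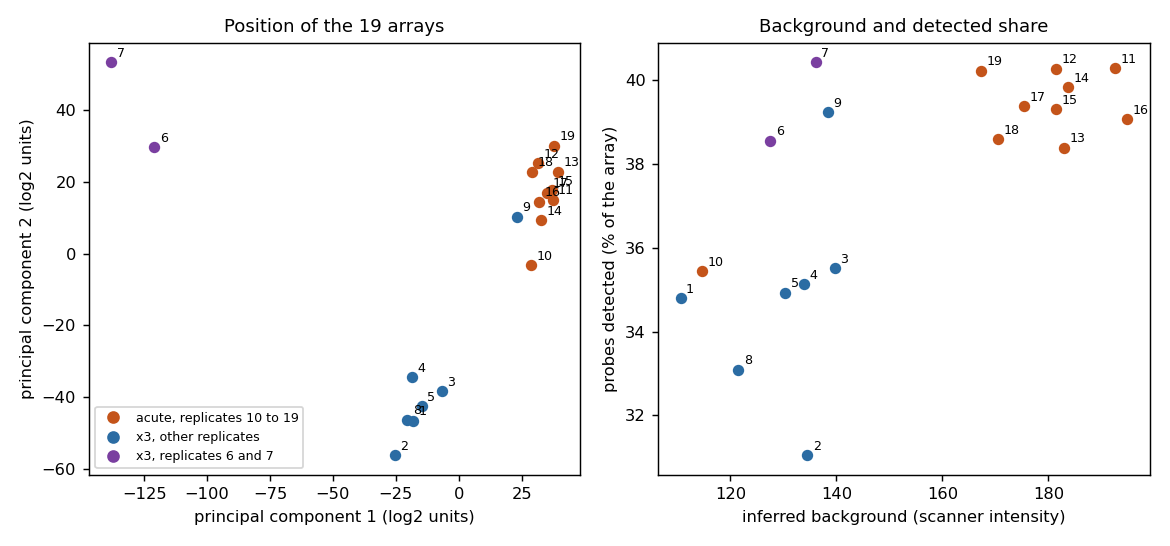
Left, positions of the 19 arrays on the first and second principal components of normalized log2 values, and right, the share of probes detected against the inferred background in scanner intensity units, each point being 1 array with its replicate number. X3 replicates 6 and 7 lie apart, x3 replicate 9 lies among the acute arrays on the left, and acute replicate 10 lies among the x3 arrays on the right.

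The tumour label was checked against markers. Krt8 and Krt18, keratins of simple epithelia, and Vim, the vimentin gene, were detected on all 19 arrays, whereas Epcam was detected on none. Krt19 was detected only on x3 replicates 6 and 7, at 8.79 and 9.47. Krt7 read 10.42 and 10.87 there and 4.69 to 5.66 elsewhere. Hmga2 read 5.24 to 5.96 in the acute set and 5.34 to 6.44 in the other 7 x3 arrays. Of 5 carcinoma markers tested, 2 were higher and 1 lower on 19 arrays, and 2 and 2 on 17. Vim was higher in the acute set: it read 13.48 to 13.77 (median 13.67) there and 11.93 to 13.65 (median 12.68) in the x3 set, with a difference of 1.05 ± 0.17 log2 units (SE, limma adjusted p = 5.6e-05) and of 0.88 ± 0.15 on 17 arrays (adjusted p = 9.75e-05). The x3 maximum was replicate 9, and the other probe of Vim differed by -0.25. Cdh1, the E-cadherin gene, was lower in the acute set by 1.58 ± 0.46 log2 units, and its x3 values of 9.90 and 10.21 in replicates 6 and 7 were the highest; without them the difference was -0.81 ± 0.13 (limma adjusted p = 0.00862 and 9.78e-05). Acute Cdh1 values ran from 5.25 to 6.30 and those of the other 7 x3 arrays from 6.26 to 6.79.

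The schedules differed at a large share of the probes. With all 19 arrays, 4381 of 17087 tested probes were higher in the acute set (25.6%) and 3242 were lower (19%) at a limma adjusted p of 0.05. On 17 arrays, 4203 of 16730 were higher (25.1%) and 4237 lower (25.3%). In either direction 44.6% were called on 19 arrays and 50.4% on 17. Nothing in the labels ties tumours to animals beyond 1 tumour per array, so the p-values measure the spread between these tumours. Of the calls, 3843 higher and 2862 lower were made in both fits, and 0 changed direction. Most differences were small, with a median absolute size of 0.65 log2 units among the calls on 19 arrays and 0.57 on 17. A difference over 2 log2 units, or 4-fold, was reached by 108 higher and 9 lower probes on 19 arrays and by 69 and 4 on 17. The acute and x3 values did not overlap at 470 higher (2.75%) and 215 lower probes (1.26%) with all arrays, and at 490 (2.93%) and 369 (2.21%) on 17.

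These directions are relative to the distribution of each array, because quantile normalization gives all arrays the same one. When arrays were scaled to a common median instead, the median difference of the tested probes moved from 0.03 to 0.57 log2 units, and 9785 probes were called higher and 249 lower, so that 97.5% of the calls were higher against 57.5%. The balance of the calls also varied with signal, as counted in a separate fit of all 45281 probes, unfiltered. Among the 11585 probes detected on all 19 arrays, 2246 were higher and 2348 lower, whereas among the 5502 detected on 9 to 18 arrays, 1697 were higher and 461 lower. Among the 19355 probes detected on no array, 4.96% were called in that fit. A probe present in only one set could pass the detection filter through that set, so the counts are no measure of how many genes differ.

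The 12 named probes that were higher in the acute set differed by at least 2.40 log2 units in both fits. Ybx3 (ILMN_2629657), which encodes a cold shock domain protein that binds RNA and DNA, read 9.13 to 9.93 with a median of 9.42 in the acute set and 4.58 to 8.39 with a median of 5.41 in the x3 set. The sets did not overlap, and the x3 array nearest to the acute ones was replicate 9. The difference was 3.96 ± 0.36 log2 units (SE, limma adjusted p = 4.79e-07), and 3.73 ± 0.36 on 17 arrays (adjusted p = 1.3e-06). Pabpc1 (ILMN_1259769), for the cytoplasmic poly(A)-binding protein, read 8.67 to 9.34 in the acute and 4.84 to 8.16 in the x3 set, 3.14 ± 0.31 log2 units apart and 2.91 ± 0.30 on 17 arrays (limma adjusted p = 7.32e-07 and 2.02e-06). Lbr (ILMN_2509988), for the lamin B receptor of the inner nuclear membrane, was detected on 10 of 10 acute arrays and on 1 of 9 x3 arrays, replicate 9 at 6.39 being the x3 maximum and 6.85 the acute minimum. It differed by 2.64 ± 0.22 log2 units and by 2.62 ± 0.24 on 17 arrays (limma adjusted p = 3.1e-07 and 1.13e-06). Its 8 other x3 values lay at background, so that size depends on background values. With undetected values raised to the lowest detected signal of their array, the Lbr difference was 1.87, or at least 3.65-fold. The Ybx3 and Pabpc1 probes were detected on 3 and 5 of 9 x3 arrays. With undetected values so raised, they differed by at least 3.62 and 3.00.

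Dda1 (ILMN_2541190), for a component of a CUL4 ubiquitin ligase, was detected on 10 acute and 1 x3 arrays, as Lbr was. It read 7.05 to 7.74 in the acute set and 4.41 to 6.91 in the x3 set, without overlap, and differed by 2.52 log2 units and by 2.40 on 17 arrays, and by at least 1.83 with undetected values so raised. Crls1, for the cardiolipin synthase of mitochondria, differed by 2.85 and 2.65, and Tgfbr3, for the TGF-beta co-receptor betaglycan, by 2.95 and 2.67. These probes were detected on 4 and 6 x3 arrays, and differed by at least 2.62 and 2.84 with undetected values raised. Neither overlapped between the sets. Msn, for moesin, which ties actin to the plasma membrane, overlapped through replicate 9 alone: its acute values ran from 10.20 to 11.43, replicate 9 read 10.96, and the other x3 arrays read 7.07 to 7.98. Its difference was 2.83 ± 0.35 log2 units, 2.70 ± 0.37 on 17 arrays and 3.17 with replicate 9 left out as well.

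Matrix genes were among the 12. Fn1 (ILMN_2646618), for fibronectin, read 9.76 to 11.10 in the acute set, 4.49 and 5.16 in x3 replicates 6 and 7, 9.99 in x3 replicate 9 and 7.22 to 7.89 in the other 6 x3 arrays. Its difference was 3.23 ± 0.48 log2 units on 19 arrays and 2.56 ± 0.30 on 17 (limma adjusted p = 2.7e-05 and 4.64e-06). Col3a1 (ILMN_2683958), for type III collagen, differed by 2.86 and 2.44. Calu, for a calcium-binding protein of the endoplasmic reticulum, was detected on 10 acute and 1 x3 arrays and differed by 2.55 and 2.50, or at least 1.79 with undetected values raised; its brightest probes, detected on all 19 arrays, differed by 0.50 and 0.63. Ide, for the insulin-degrading enzyme, differed by 2.76 and 2.42 and Cep170, for a centrosomal protein, by 2.79 and 2.42. Of the 12 probes, 6 did not overlap between the sets with all arrays, against 2.75% of all tested probes, a count that the choice of the largest differences favours. All 12 were apart once replicates 6, 7 and 9 were left out, a setting chosen after seeing the data. The share of all tested probes was not counted there, and leaving out the nearest x3 array favours separation. Replicate 9 was the x3 array nearest to the acute set for all 12.

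The 12 named probes that were lower in the acute set had differences between -1.57 and -2.75 log2 units over both fits. Adal (ILMN_1219179), for an adenosine deaminase-like enzyme, read 4.76 to 6.61 with a median of 5.26 in the acute set and 5.83 to 8.21 with a median of 7.63 in the x3 set. The sets overlapped through acute replicate 10 at 6.61 and x3 replicate 9 at 5.83. The difference was -2.21 ± 0.27 log2 units (SE, limma adjusted p = 4.11e-06) and -2.11 ± 0.29 on 17 arrays (adjusted p = 1.59e-05). Gm7609, a predicted gene, differed by -2.09 and -2.07 log2 units and Csnk1g1, for a casein kinase 1 isoform, by -2.06 and -2.07, both without overlap between the sets. Csnk1g1 read 5.32 to 7.58 in the acute set and 7.66 to 8.54 in the x3 set.

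Oga, for the enzyme that removes O-GlcNAc from proteins, read 6.71 to 7.25 in the acute set and 7.44 to 9.58 in the x3 set, and differed by -1.84 ± 0.21 log2 units and -1.67 ± 0.20 on 17 arrays (limma adjusted p = 2.11e-06 and 4.14e-06). Gcn1, for an activator of the amino acid sensing kinase GCN2, differed by -1.64 and -1.70, Sergef, for a protein that regulates secretion, by -1.69 and -1.87, and Dglucy, for the mitochondrial D-glutamate cyclase, by -1.64 and -1.93. Ralgapa1, for a subunit of a Ral GTPase activating complex, differed by -1.62 in both fits, and Prrc2c, for a proline-rich coiled-coil protein, by -1.61 and -1.60.

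The remaining 3 were high in x3 replicates 6 and 7. Cbr2, for a carbonyl reductase abundant in mouse lung, read 14.63 and 14.68 there against 8.61 to 10.80 in the other x3 arrays and 6.48 to 9.82 in the acute set. Its difference was -2.75 ± 0.73 log2 units on 19 arrays and -1.70 ± 0.46 on 17 (limma adjusted p = 0.00476 and 0.00521). Lilra6, for a leukocyte receptor of the immunoglobulin family, differed by -1.96 and -1.57, and Tm6sf1 by -1.98 and -1.57. In 6 of the 12 probes the sets did not overlap with all arrays (1.26% of all tested probes), and in 7 on 17 arrays (2.21%), counts that the choice of probes favours. In the setting without replicates 6, 7 and 9, chosen after seeing the data and without a share of all probes, 11 did not overlap. The exception was Cbr2, for which the acute maximum was 9.82 and the lowest of those 6 x3 values 8.76.

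**Figure D2:**
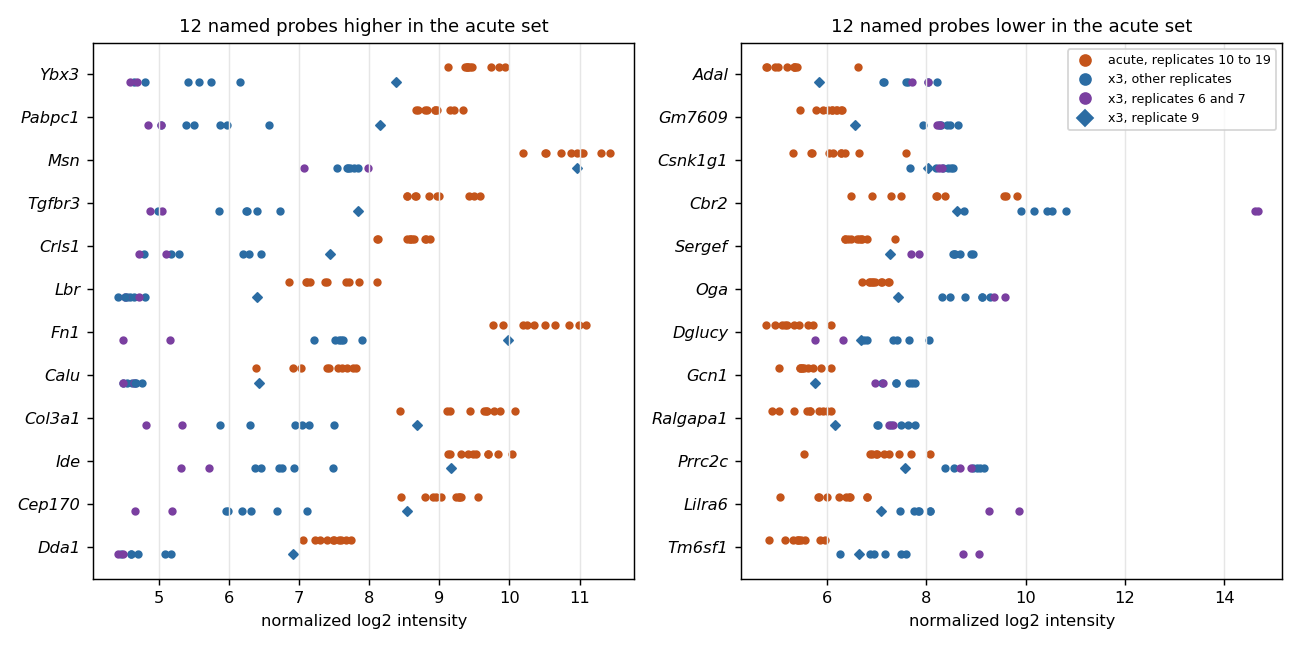
Normalized log2 intensity of the 24 named probes on each of the 19 arrays, with the acute arrays above and the x3 arrays below each gene's line. X3 replicate 9, the diamond, is the x3 array nearest to the acute set for all 12 probes on the left and for 9 of the 12 on the right.

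Probes of the same gene often disagreed. Of 3518 genes with at least 2 tested probes, 2543 had a called probe on 19 arrays, and in 325 of them one probe was called higher and another lower. On 17 arrays the numbers were 3456, 2701 and 470. Among 773 genes with a called probe over 1 log2 unit, every tested probe passed that size in 59. The brightest probe of a gene was called higher by over 1 log2 unit in 5.09% of the 3518 genes, against 12.7% of the 5098 other probes of the same genes (3.61% and 9.54% on 17 arrays).

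Several named genes show it. The brighter probe of Lbr, with means of 11.38 in the acute and 11.62 in the x3 set, differed by -0.24 (limma adjusted p = 0.0401), against 2.64 for the named probe. The brighter probe of Dda1 differed by -0.37 (adjusted p = 0.0117), and the other 2 probes of Msn by -0.12 and -0.22 (adjusted p = 0.678 and 0.167). The brightest Ybx3 probe differed by 1.64, and another by 0.27. The brightest Pabpc1 probe differed by 0.81, but another by 3.09 (limma adjusted p = 3.16e-06), near the 3.14 of the named probe. Besides its brightest probes, Calu had another at 2.31. Other probes of Ralgapa1 differed by -1.06 and 0.19, and that of Tm6sf1 by 0.40. Other probes of Ide differed by -0.04 and 0.67, and those of Cep170 by -0.09 and 0.42. The other probe of Tgfbr3 differed by 0.53 and that of Col3a1 by 0.84. Other probes of Crls1 differed by 0.44, 0.47 and 1.62. Fn1 was the named gene whose 4 tested probes all differed by more than 1.5 log2 units, at 1.86, 2.15, 2.63 and 3.23, with limma adjusted p-values from 3.7e-06 to 0.000186. Prrc2c had other probes called in both directions, at -1.58 and at 0.69 and 0.76. Csnk1g1, at -2.06 for the named probe, had another called higher at 0.80 (limma adjusted p = 0.00826) and 2 that were not called on 19 arrays, at -0.24 and -0.57. The sequences and transcript positions of the probes were not analysed here, so which transcripts a probe reads was not tested.

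**Figure D3:**
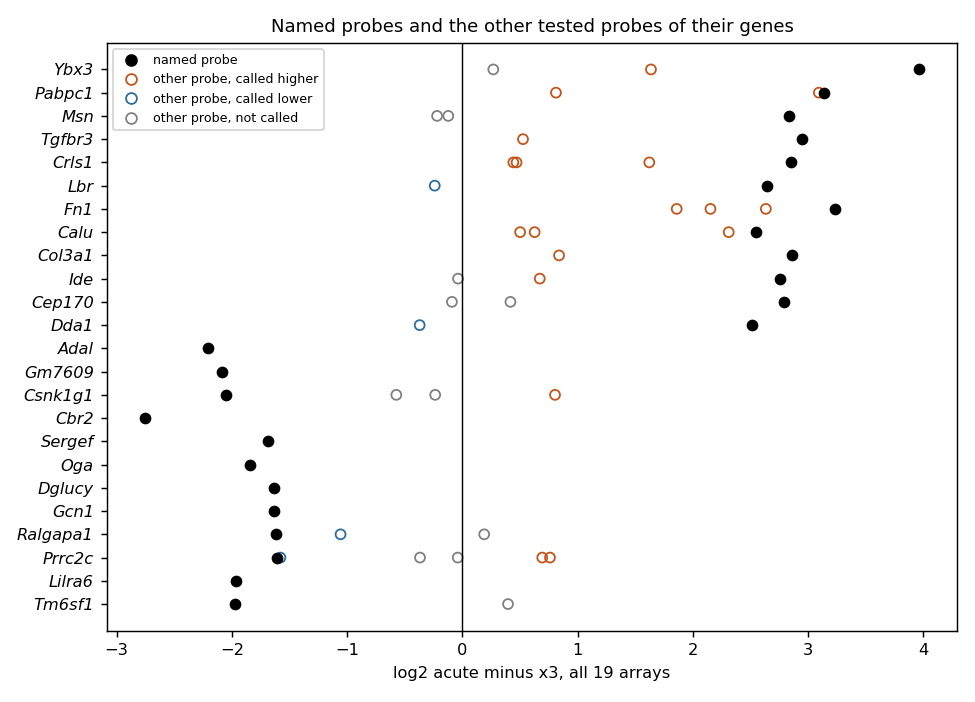
Difference between the acute and x3 sets in log2 units on all 19 arrays for the named probe of each gene (black) and for every other tested probe of that gene (open circles, coloured where called). The 4 probes of Fn1 lie between 1.86 and 3.23, whereas the other probes of Msn, Lbr and Dda1 lie below 0.

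Gene lists were read against the 25.6% of probes called higher and 19% lower on 19 arrays, and 25.1% and 25.3% on 17. A list's gene is represented by its brightest probe, so the share of all probes, dim ones included, is an unlike reference. Among genes with at least 2 tested probes, 788 of the 3518 brightest probes were higher and 736 lower on 19 arrays. Of their 5098 other probes, 1896 were higher and 682 lower. On 17 arrays 735 of the brightest probes were higher and 998 lower. In a bulk tumour fewer cells of a type cannot be told apart from less RNA per cell. Under scaling to a common median, 23 list entries that were called lower had a difference above 0, none of them called, and 0 of them once that scaling's own median of 0.57 was taken off; the genes named below as lower that are among them are Srebf2, Jun, Klf6, Bbc3, Sesn1, Keap1, Rps14, Smad3 and Id2.

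Hypoxia genes were called more often than all probes in the acute direction with all arrays and less clearly without replicates 6 and 7. Of 22 listed, 20 were measured and 18 tested; 8 were higher and 0 lower on 19 arrays, and 6 were higher and 1 lower on 17, with medians of 0.62 and 0.26 against 0.03 and -0.01 for all tested probes. P4ha1, for a subunit of the collagen prolyl hydroxylase, read 7.98 to 9.73 in the acute set and 6.03 to 8.43 in the x3 set and differed by 1.71 ± 0.28 log2 units (limma adjusted p = 6.83e-05), or 1.41 ± 0.24 on 17 arrays (adjusted p = 0.000105). Its other probe differed by -0.68. Hif1a, for the oxygen-regulated subunit of HIF-1, read 7.88 to 8.48 against 5.44 to 8.10, with replicate 9 highest among the x3 arrays, and differed by 1.47 ± 0.28 and by 1.10 ± 0.19 (limma adjusted p = 0.000298 and 0.00014). Egln1, for the prolyl hydroxylase that marks HIF-1 for degradation, was higher by 0.91 and 0.71, and Plod2, for a collagen lysyl hydroxylase, by 1.18 and 0.64.

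Glycolysis genes showed 7 higher and 1 lower of 13 tested on 19 arrays, and 5 and 3 on 17. Hk1, for a hexokinase, was detected on 10 acute and 5 x3 arrays, read 6.96 to 7.64 against 4.88 to 7.21, and was higher by 1.74 ± 0.23 log2 units and by 1.63 ± 0.24 on 17 arrays (limma adjusted p = 7.98e-06 and 2.67e-05). Pkm, for pyruvate kinase, was higher by 0.76 and 0.61, but its other probe differed by -0.85. Pgk1, for phosphoglycerate kinase, was higher by 1.01 and 0.58 and Pfkp, for a phosphofructokinase, by 1.02 and 0.59. X3 replicates 6 and 7 were the lowest of the 9 for Pkm, Pgk1 and Pfkp, and the differences of all 4 genes were smaller without them.

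Subunits of the respiratory chain and ATP synthase were called in both directions. Of 23 tested, 9 were higher and 3 lower on 19 arrays, and 9 and 4 on 17, with medians of 0.16 and 0.06. Cox6a1 of cytochrome c oxidase read 12.08 to 12.56 in the acute set and 10.70 to 12.08 in the x3 set, of which replicate 9 was the highest, and was higher by 1.28 ± 0.14 log2 units and 1.25 ± 0.15 (limma adjusted p = 1.76e-06 and 4.76e-06). Its other probe differed by 1.35. Cox5a and Cox5b of the same complex were higher by 0.78 and 0.59, and Atp5j of the ATP synthase by 0.75. Cox5b did not overlap between the sets, reading 13.24 to 13.55 against 12.62 to 13.12.

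Cell cycle genes were called in 1 direction with all arrays and in both without replicates 6 and 7. On 19 arrays 8 of 24 tested were higher and 0 lower. On 17 arrays 6 were higher and 3 lower, and the median moved from 0.38 to 0.05. There the share of higher calls was near the 25.1% of all probes, and that of lower calls was below their 25.3%. Foxm1, the transcription factor of late cell cycle genes, was higher by 0.79 ± 0.15 and 0.62 ± 0.10 (limma adjusted p = 0.000272 and 7.07e-05). It read 7.69 to 8.06 in the acute set and at most 7.51 in the x3 set. Tpx2 and Aurkb, which act on the mitotic spindle, were higher by 0.93 and 1.02 on 19 arrays and by 0.77 and 0.65 on 17, and Top2a, for a topoisomerase, by 1.13 and 0.72.

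The balance of calls among genes of the type I interferon response depended on the scaling. Of 16 tested, 1 was higher and 7 lower on 19 arrays, and 1 and 4 on 17, with medians of -0.60 and -0.39; on 17 arrays the share of lower calls was near that of all probes. Rank-invariant scaling left 1 higher and 1 lower call, with a median of -0.40, and median scaling gave 3 higher and 1 lower, with a median of 0.08 that lies below the 0.57 of all probes. Bst2, for the antiviral membrane protein tetherin, read 5.66 to 7.12 in the acute set and 6.21 to 8.10 in the x3 set, the lowest x3 value being that of replicate 7, without which the x3 minimum was 7.18 and the sets did not overlap. It was lower by 1.24 ± 0.23 log2 units on 19 arrays and by 1.41 ± 0.20 on 17 (limma adjusted p = 0.000229 and 1.95e-05). Usp18 and Isg15, which remove and supply the ubiquitin-like modifier ISG15, differed by -0.84 and -0.60 on 19 arrays and by -0.69 each on 17. Ddx58, for the RNA sensor RIG-I, went the other way, by 0.72 and 0.75. The other probe of Usp18 differed by 0.59.

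Antigen presentation on MHC class I showed 4 higher and 2 lower of 13 tested in both fits. Tapbp, for tapasin of the peptide loading complex, read 7.72 to 9.20 in the acute set and 5.75 to 8.57 in the x3 set and was higher by 1.89 ± 0.28 log2 units and 1.72 ± 0.29 on 17 arrays (limma adjusted p = 2.7e-05 and 9.57e-05). Psmb10, an immunoproteasome subunit, was lower by 0.91 ± 0.14, with acute values up to 11.30 and x3 values from 11.27, and its other probe differed by -0.81. Tap2, of the peptide transporter, differed by -0.83 and -0.64, and Calr, for the chaperone calreticulin, by 0.60 and 0.47.

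Among protein folding genes, higher calls outnumbered lower ones. In the unfolded protein response 6 were higher and 2 lower of 14 tested on 19 arrays, and 7 and 3 on 17. Edem1, which directs misfolded glycoproteins to degradation, was detected on 10 acute and 4 x3 arrays and was higher by 1.08 ± 0.17 log2 units and 1.02 ± 0.18 (limma adjusted p = 4.4e-05 and 0.000152), reading 6.25 to 6.90 against 4.75 to 6.20. Hsp90b1 and Pdia4, chaperones of the endoplasmic reticulum, were higher by 0.52 and 0.65. Among 10 tested heat shock genes 5 were higher and 1 lower in both fits. Hspa1b, for an inducible HSP70, was detected on 9 acute arrays and not well above background on any x3 array, and was at least 1.45-fold higher (limma adjusted p = 7.55e-05), the bound being taken against the lowest signal well above background on each x3 array. Bag3, Hspe1 and Hspd1 were higher by 0.36, 0.59 and 0.53.

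Cholesterol synthesis showed 4 higher and 1 lower of 9 tested in both fits. Nsdhl, for a sterol dehydrogenase, was higher by 1.41 ± 0.27 log2 units and Sqle, for squalene epoxidase, by 1.01 ± 0.21 (limma adjusted p = 0.000314 and 0.000695), with 1.12 and 0.75 on 17 arrays. Dhcr7, for the reductase that completes cholesterol, was higher by 0.58, and Srebf2, for the pathway's transcription factor, was lower by 0.56.

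Immediate early genes, which respond within minutes to growth factors and handling, showed 2 higher and 2 lower of 17 tested on 19 arrays and 4 and 3 of 16 on 17. Myc read 9.22 to 10.22 in the acute set and 4.95 to 8.75 in the x3 set, without overlap, and was higher by 2.52 ± 0.34 log2 units and by 2.08 ± 0.23 on 17 arrays (limma adjusted p = 1.1e-05 and 3.02e-06). Klf4, detected on 10 acute and 3 x3 arrays, was higher by 1.23 and 1.54. Klf6 was lower by 0.42 and Jun by 0.50 on 19 arrays. P53 targets showed 2 higher and 4 lower of 15 tested, and 2 and 3 on 17 arrays. Gadd45a, a stress-induced inhibitor of growth, was higher by 1.46 ± 0.22 and 1.18 ± 0.16 (limma adjusted p = 3.83e-05 and 1.95e-05). Tnfrsf10b, a death receptor, was higher by 0.54, whereas Bbc3, for the pro-apoptotic protein PUMA, was lower by 0.61 and Sesn1 by 0.51. Sesn1 was not called on 17 arrays (-0.37, limma adjusted p = 0.0533).

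Matrix genes had 3 higher and 0 lower of 21 tested on 19 arrays, and 6 higher and 2 lower of 20 on 17. The brightest Fn1 probe read 13.51 to 14.28 in the acute set and 9.09 to 13.93 in the x3 set and was higher by 2.15 ± 0.38 log2 units and 1.64 ± 0.23 (limma adjusted p = 0.000147 and 1.81e-05). Col6a2, of type VI collagen, was higher by 1.25 and 1.33, with another probe at -0.35, and Thbs1, for thrombospondin, by 0.94 and 0.99. Angiogenesis factors showed 4 higher and 2 lower of 14 tested, and 3 and 2 of 13 on 17 arrays. Vegfb and Vegfc were higher by 0.86 and 0.90, and by 0.56 and 0.53 on 17 arrays. Hgf, the hepatocyte growth factor, was lower by 1.41 ± 0.32 and by 0.92 ± 0.16 (limma adjusted p = 0.00147 and 0.000174), with acute values of 4.71 to 5.89 below every x3 value, from 6.02 to 8.64.

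Other lists had few calls or calls in both directions. Cytosolic ribosomal proteins had 4 higher and 3 lower of 20 tested, and 4 and 6 on 17 arrays. Rpl22, Rpl27 and Rpl30 were higher by 0.49, 0.40 and 0.44, and Rps14 lower by 0.28. Oxidative stress genes had 3 higher and 2 lower of 14, and 4 and 2 on 17 arrays, with Nfe2l2, for the transcription factor NRF2, higher by 0.79 and Keap1, for its inhibitor, lower by 0.43; Gpx1 and Txn1 were higher by 0.42 and 0.67. TGF-beta signalling had 1 higher (Tgfb1, by 0.71) and 2 lower (Smad3 by 0.33 and Id2 by 0.53) of 15, and 1 and 3 of 14 on 17 arrays. DNA repair had 1 higher and 1 lower of 15, and 1 and 4 on 17 arrays. Inflammatory cytokines and chemokines had 3 higher and 0 lower of 13, and 1 and 1 on 17 arrays, with Ccl2, a monocyte attractant, higher by 1.19 and 0.57. Of 11 housekeeping genes 4 were higher and 0 lower on 19 arrays, above the 25.6% of all probes, and 3 and 2 on 17.

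**Figure D4:**
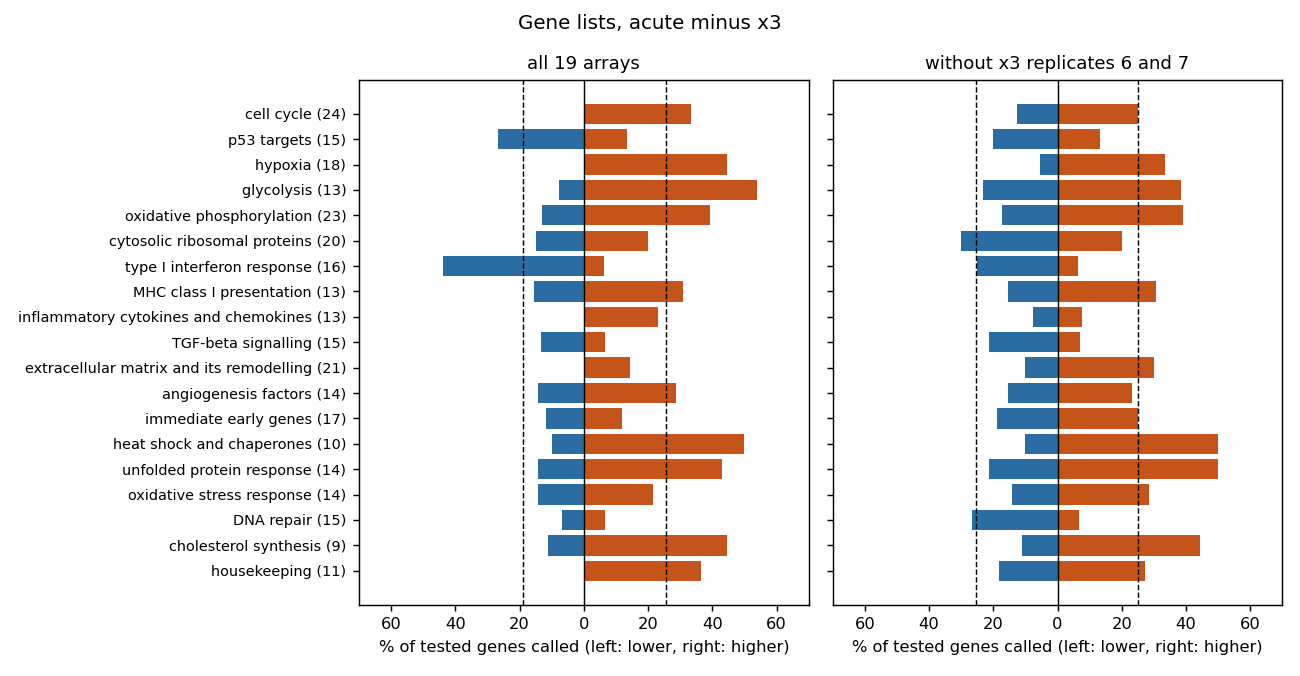
Percentage of the tested genes of each list (number tested on 19 arrays in parentheses) that were called higher (right, orange) or lower (left, blue) in the acute set at a limma adjusted p of 0.05, on all 19 arrays and on 17. The dashed lines mark the shares of all tested probes, 25.6% and 19% on the left and 25.1% and 25.3% on the right. These shares include dim probes, whereas a list gene is shown by its brightest probe. The interferon list reaches past the lower line and the hypoxia list past the higher line with all arrays.

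Host cell markers were examined with the same fits. Macrophage markers summed to 25054 to 45905 in the acute set and 26056 to 44336 in the x3 set. Of 13 tested, 3 were higher and 2 lower in both fits, with list medians of 0.03 on 19 arrays and -0.27 on 17. The complement genes C1qb and C1qc were higher by 1.06 each and Cd14 by 0.46, while Lyz1, for lysozyme, differed by -0.35 (-0.27 and not called on 17 arrays, limma adjusted p = 0.0737). C1qa, of the same complement complex, did not go with them. Under scaling to a common median it differed by 0.13 (limma adjusted p = 0.7), against 1.61 for C1qb and 1.63 for C1qc. Fibroblast and pericyte sums also overlapped, from 16775 to 24742 in the acute and from 16294 to 26042 in the x3 set. Of 13 endothelial genes, 0 were higher and 3 lower on 19 arrays, and the median went from -0.78 to -0.09 without replicates 6 and 7. On 17 arrays 1 was higher and 3 lower of 12 tested, the lower share being near the 25.3% of all probes. Kdr, Flt1 and Egfl7 differed by -0.44, -1.18 and -1.22 with replicates 6 and 7 and by -0.48, -0.47 and -0.41 without. Pecam1 read 6.27 to 7.67 in the acute set and 5.47 to 7.23 in the x3 arrays other than replicates 6 and 7. Prf1, for perforin of killer lymphocytes, was lower in the acute set by 1.35 ± 0.23 and 1.18 ± 0.23 (limma adjusted p = 0.000127 and 0.000422). The T and NK cell markers summed to 625 to 1459 in the acute set against 1078 to 3714 in the x3 set, or 1078 to 2518 without replicates 6 and 7. Of 16 T and NK cell genes 14 were measured and 3 tested. Prf1 was the only one called in either fit, and the other 2, Ccl5 and Nkg7, were not. B and plasma cell markers had 0 tested of 10. Skeletal muscle markers summed to 388 to 13162 in the acute set, the highest being replicate 12, and to 463 to 4345 in the x3 set. Whether differences in cell make-up carry any of the gene differences was not tested.

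The same schedules were compared in adolescent mice, with 9 acute and 9 x3 sham tumours, in a fit of 37 arrays. There 1081 of 19651 tested probes were higher (5.5%) and 1008 lower (5.13%) in the acute set, against 5270 and 4132 in old mice in that fit. The difference between the ages was itself called at 3592 probes that were more positive in old mice (18.3%) and 2423 that were more negative (12.3%). Without old x3 replicates 6 and 7 these counts were 3337 and 3038. For all 24 named probes the mean of the old x3 tumours lay outside both adolescent means: below them for the 12 probes higher in the old acute set and above them for the 12 lower, with or without replicates 6 and 7. The choice of these probes for a large difference in old mice favours that count. Its share over all tested probes was not counted. Without replicates 6 and 7 the age difference was called for all 12 higher probes and for 11 of the 12 lower, the exception being Cbr2 at -1.29 ± 0.65 (limma adjusted p = 0.128). Age, handling and background cannot be told apart in this comparison. Ybx3 averaged 8.85 ± 0.33 (SD, n = 9) in adolescent acute, 9.66 in adolescent x3, 9.56 in old acute and 5.54 in old x3 tumours. Among adolescents it differed by -0.81 ± 0.31 log2 units (SE, limma adjusted p = 0.0853). Dda1 averaged 7.56 in both adolescent sets, 7.53 in old acute and 4.90 in old x3 tumours.

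Of the 12 named higher probes, 1 was called in adolescents, Lbr at -1.01 (limma adjusted p = 0.0101), opposite to its direction in old mice. Of the 12 lower ones, 3 were called there: Csnk1g1 at -0.95, Prrc2c at -0.70 and Gcn1 at -0.56, all in the direction seen in old mice (limma adjusted p = 0.00518, 0.0333 and 0.0347). Hif1a averaged 8.01 and 8.21 in adolescent acute and x3 tumours and 8.33 and 6.84 in old ones, with an age difference of 1.69 ± 0.36 (limma adjusted p = 0.000363), or 1.29 without replicates 6 and 7. Myc averaged 9.31 and 9.62 against 9.61 and 7.10, with an age difference of 2.83 ± 0.44 (adjusted p = 4.67e-06), or 2.37 without them. Bst2 averaged 6.76 and 6.74 against 6.35 and 7.61, with an age difference of -1.28 ± 0.34 (adjusted p = 0.00408), or -1.45 without them. In the hypoxia list 3 of 18 genes had a more positive schedule difference in old mice and 0 a more negative one, in glycolysis 5 and 0 of 14, and in the interferon list 0 and 5 of 16, while in adolescents 0 hypoxia genes, 0 glycolysis genes and 1 interferon gene were called. The hypoxia share was near the 18.3% of all probes, and without replicates 6 and 7 glycolysis had 3 and 2 and the interferon list 0 and 7. The named genes were chosen for their difference in old mice, so the size of their age difference was favoured by that choice.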

How the data were processed

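Arrays were grouped by title and description. The deposited intensity values are mean bead intensities without background subtraction or normalization, with a detection p-value per probe and array that the authors' software gave, per the file headers. The authors' processed intensity values were a straight-line transform of each array and served as an alternative. GenomeStudio is named, without a version, per the submitters' processing notes. Probes were named from GEO's platform annotation: of 45281 probes, 34885 had 1 symbol, 18 several and 10378 none listed.

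With limma 3.58.1 in R 4.3.3, the 19 arrays were background-corrected from the detection p-values with nec (offset 16). They were quantile-normalized on the linear scale and then converted to log2. Probes with a detection p under 0.05 on at least 9 arrays were fitted with lmFit and eBayes and called where p, adjusted by Benjamini and Hochberg's method over every fitted probe, was under 0.05. Each adjusted p is from limma. Log2 differences of offset intensities understate dim probes, and the number of arrays limits precision. The procedure was tested on simulated data.

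Probes called in the same direction with and without x3 replicates 6 and 7 and detected on every array of 1 schedule were ranked by the smaller of both differences, and the 12 highest per direction, 1 per gene, were named; of list genes, the 4 with the smallest adjusted p could be named. Lung, carcinoma and sex-linked genes were named as defining markers. Members and lists were chosen with earlier results of these data known. Alternatives covered background correction, scaling, filters, array weights, models and left-out arrays. No pair of arrays held identical values, with a highest correlation of 0.988.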

Additional observations from a re-analysis of the deposited data

Results flagged for a closer look

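Among 86 sets of values examined, 24 had an array farther from its set than Dixon's 95% limit allows, where about 4.3 would by chance, 1 in 20. Of these, 10 were x3 replicate 9 in named probes: it read 8.39 for Ybx3, 10.96 for Msn, 6.39 for Lbr, 6.42 for Calu and 6.91 for Dda1, against set medians of 5.41, 7.72, 4.58, 4.63 and 4.60. It read 5.83 for Adal, 6.55 for Gm7609, 5.76 for Gcn1, 6.16 for Ralgapa1 and 7.58 for Prrc2c, against medians of 7.63, 8.26, 7.40, 7.28 and 8.89. Its carcinoma marker sum of 15884 also stood apart from an x3 median of 9411. The named probes were chosen from these data and share the same arrays, so 24 against 4.3 does not measure an excess over chance.

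Acute replicate 10 stood apart by its background of 115 and its detected share of 35.4%, and by 6.61 for Adal, 7.37 for Sergef and a sum of 105 for B and plasma cell markers, against acute medians of 5.26, 6.63 and 68.7. Acute replicate 19 stood apart at 5.54 for Prrc2c and 13249 for antigen-presenting cell markers. Acute replicate 12 stood apart with sums of 13162 for skeletal muscle, 698 for adipocyte and 29530 for erythroid markers, against medians of 572, 239 and 6051. Mast cell sums of 787 in acute replicate 18 and 3546 in x3 replicate 7, and a macrophage sum of 26056 in x3 replicate 3, also stood apart, against set medians of 186, 115 and 40926.

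The schedule difference was more positive in the old set than in the adolescent set at 3592 probes and more negative at 2423, and it differed at each of the 24 named probes, which were chosen for their difference in old mice. The age differences of the schedule difference, old minus adolescent in log2 units, were 4.83 for Ybx3, 4.05 for Fn1, 4.04 for Pabpc1, 3.77 for Lbr, 3.49 for Col3a1, 3.41 for Ide, 3.22 for Cep170, 3.21 for Crls1, 3.17 for Tgfbr3, 2.98 for Calu, 2.87 for Msn and 2.63 for Dda1. In the x3 direction they were -2.98 for Adal, -2.33 for Cbr2, -2.15 for Lilra6, -1.95 for Sergef, -1.78 for Dglucy, -1.65 for Oga, -1.62 for Gm7609, -1.56 for Tm6sf1, -1.54 for Ralgapa1, -1.14 for Csnk1g1, -1.13 for Gcn1 and -0.92 for Prrc2c. The limma adjusted p ran up to 0.0414, for Cbr2, whose call was lost without x3 replicates 6 and 7 (-1.29, adjusted p = 0.128). Whether age, handling or single arrays carry these differences cannot be told apart.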

How the results depend on the processing

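Leaving out 1 array at a time gave 3986 to 4741 higher and 2935 to 3607 lower probes. Each of the 24 named probes kept its direction and its call under every alternative in which it was tested, except that 9 lost the call in the one-way ANOVA with Bonferroni adjustment and 15 of 15 tested lost it when acute replicate 10, the array with a stated dose, was the only acute array. That lone array was assumed to vary like the others. In that fit limma called 0 higher and 0 lower of 12771 probes, with 352 and 306 at an unadjusted p under 0.05, and the 15 probes kept their sign; fewer samples are its construction. Median scaling gave 9785 higher and 249 lower probes, a test for changes beyond 1.2 times 2264 and 1133, and the ANOVA 1006 and 62. Probes detected on all 19 arrays gave 2563 higher calls of 11585 tested, and array weights gave 4862 lower calls. Without x3 replicates 6, 7 and 9, an alternative chosen after seeing the data, 4680 were higher and 4843 lower. With replicates 6 and 7 and acute replicate 10 left out, also chosen later, there were 4365 and 4354. The cause of these shifts was not tested. The array tests kept their direction and their side of the threshold under each alternative run. The counts of the age comparison ran from 3337 to 3592 and from 2363 to 3038 under the 3 alternatives run, which left out replicates 6 and 7, the background correction or the common variance. For named probes, leaving out those replicates and raising undetected values were added after seeing the data. No paired analysis was possible because the 2 sets share no replicate number. Dim probes limit the folds, since a probe near background has only a bound there.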
